A study of Mus musculus with 4 samples.

Results

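Macrophage 8 is one of the refined clusters into which the submitters divided the alveolar macrophages of mouse bronchoalveolar lavage. Its members were the cells whose refined name was Macrophage - 8 and whose coarse name was Alveolar Macrophage, which gave 560 of 9925 cells. A further 13 cells carried the same refined name but a coarse epithelial name, and they were not counted as members. The working description of the cluster as allergen-associated, recruited macrophages was held against the data. Its 6 markers, Mmp12, Ccl24, Ccl17, Arg1, Rnase2a and Ccl9, were all present in the 2 libraries from mice given house dust mite allergen, but in the 2 saline libraries Ccl24, Rnase2a and Arg1 stood at or near 0. The measurement follows transcripts at a single time, so whether the cells had been recruited was not tested, and the cluster is called by its number.

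Alveolar macrophages are the resident phagocytes of the airspace, which clear surfactant and inhaled particles and maintain themselves largely by division in place. During inflammation, blood monocytes enter the airspace and become macrophages that carry more of the machinery for presenting antigen to T cells, more complement C1q and more apolipoprotein E. Under the type 2 cytokines of allergy, macrophages make arginase, chitinase-like and resistin-like proteins, and chemokines that call in eosinophils and T helper cells.

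All mice were C57BL/6. The mice formed 4 groups, in which HDM is house dust mite and APM is Afghanistan particulate matter, a desert dust. HDM+APM mice breathed aerosolized APM and were later given HDM, HDM mice breathed filtered air and were given HDM, APM mice breathed APM and were given saline, and control mice breathed filtered air and were given saline. The dust was given at 5 mg/m3 in whole-body chambers, 6 hours a day for 12 days. Intranasal sensitization with 10 µg HDM or with phosphate-buffered saline took place on days 22 and 29, the first of these 9 days after the last exposure. Challenge followed on days 36, 37 and 38, and the airspaces were washed out on day 39. For every group the recovered cells of 7 mice went together into a single 10x Genomics 3′ library, after 5 lavages of each mouse and passage through 70 µm and 40 µm strainers, with viability between 60% and 80%. Each condition is thus represented by 1 library, so no difference between conditions has a replicate, no test was possible, and every interval below is a 95% interval that covers counting error only. The mice of a pool cannot be told apart.

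Macrophage 8 held 109 cells in the HDM+APM library, 139 in HDM, 205 in APM and 107 in control. The number of cells did not follow the allergen, but the cluster's share of the macrophages did. It made up 70.3% (62.5 to 77.4) of the alveolar macrophages in HDM+APM and 69.9% (63.0 to 76.1) in HDM, against 5.55% (4.83 to 6.33) in APM and 2.76% (2.26 to 3.32) in control. The other macrophage clusters held 46, 60, 3492 and 3775 cells in the same order of libraries. Of all cells in the library it made up 9.71%, 14.0%, 5.27% and 2.73%. Shares are of the cells recovered in the lavage, so a larger share can arise from more of these cells or from fewer of the rest.

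Depth differed with the condition in the same direction as the identity described below. The median Macrophage 8 cell held 4849 unique molecular identifiers (UMIs, counted transcripts) in HDM+APM, 3056 in HDM, 1182 in APM and 1167 in control. Set against the median of all cells in its library, this was 101% in HDM+APM and 221% in HDM, but 44.8% in APM and 34.2% in control. In APM and control, 35.6% and 38.3% of Macrophage 8 cells had under 1000 UMIs, against 0.0859% and 0% of the other macrophage clusters. Of all cells, 84 shared a barcode with a cell of another library, 5 of them in Macrophage 8. Its UMIs summed to 493526, 459276, 287831 and 140468 in HDM+APM, HDM, APM and control, and 3 UMIs corresponded to 6.08, 6.53, 10.4 and 21.4 CPM (UMIs of a gene scaled to 1000000 UMIs of the class).

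The marker genes encode an elastase and matrix protease of macrophages (Mmp12), an attractant of eosinophils (Ccl24), an attractant of T helper 2 cells made by dendritic cells and macrophages (Ccl17), the arginine-degrading enzyme arginase 1 (Arg1), a secreted ribonuclease of the eosinophil-associated family (Rnase2a) and a chemokine of myeloid cells (Ccl9). Their start regions are shown as background, and no link between these letters and the levels below was tested. RefSeq gave promoters, 250 bases before to 50 after the gene's start on build GRCm38.p6, for Mmp12, Ccl17, Rnase2a and Ccl9, while Ccl24 and Arg1 are named only. Mmp12 had 2 starts, and the start with a TATAAA match is shown. Capitals mark matches, on either strand, to TTCNNNNGAA (the spacing bound by STAT6, the transcription factor of interleukin-4), GAGGAA (the core bound by the myeloid factor PU.1), TGANTCA (AP-1) and TATAAA. In the Ccl9 promoter a capital run holds overlapping TATAAA matches of both strands. The Ccl17 region is chr8:94810203-94810502 on the plus strand, Mmp12 chr9:7347124-7347423 on the plus strand, Rnase2a chr14:51256063-51256362 on the minus strand and Ccl9 chr11:83578587-83578886 on the minus strand.
Ccl17: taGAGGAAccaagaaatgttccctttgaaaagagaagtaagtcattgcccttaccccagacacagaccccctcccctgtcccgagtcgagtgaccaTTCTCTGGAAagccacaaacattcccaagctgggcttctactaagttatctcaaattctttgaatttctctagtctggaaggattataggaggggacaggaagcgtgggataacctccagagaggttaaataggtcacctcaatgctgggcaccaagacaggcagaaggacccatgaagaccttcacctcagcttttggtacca
Mmp12: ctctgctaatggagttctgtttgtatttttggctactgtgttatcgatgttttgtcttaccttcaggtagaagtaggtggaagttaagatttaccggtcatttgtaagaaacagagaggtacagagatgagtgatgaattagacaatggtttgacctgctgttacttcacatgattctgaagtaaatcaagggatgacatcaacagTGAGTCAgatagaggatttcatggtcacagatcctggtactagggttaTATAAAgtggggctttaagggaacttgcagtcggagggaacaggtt
Rnase2a: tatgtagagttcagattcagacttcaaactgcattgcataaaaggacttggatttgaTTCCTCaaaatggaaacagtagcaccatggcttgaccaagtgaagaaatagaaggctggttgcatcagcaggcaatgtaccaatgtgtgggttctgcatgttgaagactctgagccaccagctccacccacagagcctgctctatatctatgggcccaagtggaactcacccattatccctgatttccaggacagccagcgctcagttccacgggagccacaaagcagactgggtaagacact
Ccl9: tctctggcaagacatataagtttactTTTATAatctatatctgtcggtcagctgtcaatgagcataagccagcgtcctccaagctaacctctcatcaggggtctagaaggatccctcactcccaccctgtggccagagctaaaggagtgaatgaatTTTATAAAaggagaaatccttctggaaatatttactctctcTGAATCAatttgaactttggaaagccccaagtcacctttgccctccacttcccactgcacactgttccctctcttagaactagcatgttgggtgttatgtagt
Of these 4 regions only the Ccl17 promoter held the STAT6 spacing. The Mmp12 start that is not shown held 1 GAGGAA match and none of the other motifs. Among all 32851 RefSeq promoters of the same length, 6.95% held that spacing, 28.3% GAGGAA, 7.81% TGANTCA and 13.6% TATAAA. A match is a description of letters and not of binding.

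The chemokine and arginase markers of Macrophage 8 were largely a property of the allergen libraries, whereas the summed Ccl17 level was similar in HDM+APM, APM and control. Ccl24 reached 598 CPM in HDM+APM and 2286 CPM in HDM, with no UMI in APM (upper limit of the interval 12.8 CPM) and 7.12 CPM, a single UMI, in control. Rnase2a followed it, with 166 and 475 CPM in HDM+APM and HDM, 0 in APM and a single UMI in control. Arg1 had 282 CPM in HDM+APM, 899 in HDM, 3.47 in APM and 42.7 in control, where all 6 UMIs lay in 1 cell. These genes separate the libraries by HDM, and the HDM library without dust stood highest for each.

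Mmp12 had 646 CPM (577 to 721) in HDM+APM, 2541 (2397 to 2691) in HDM, 79.9 (50.7 to 120) in APM and 42.7 (15.7 to 93.0) in control. Ccl9 showed a narrower spread, with 565, 790, 132 and 114 CPM in the same order. Ccl17 differed from both, since it had 2489 CPM in HDM but 750, 705 and 726 CPM in HDM+APM, APM and control. With every cell weighted equally, Ccl17 averaged 962.5, 2099, 675 and 194 CPM in HDM+APM, HDM, APM and control. In control, 1 cell held 52 of the 102 Ccl17 UMIs. The plot of marker levels gives the summed values.

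**Figure D1:**
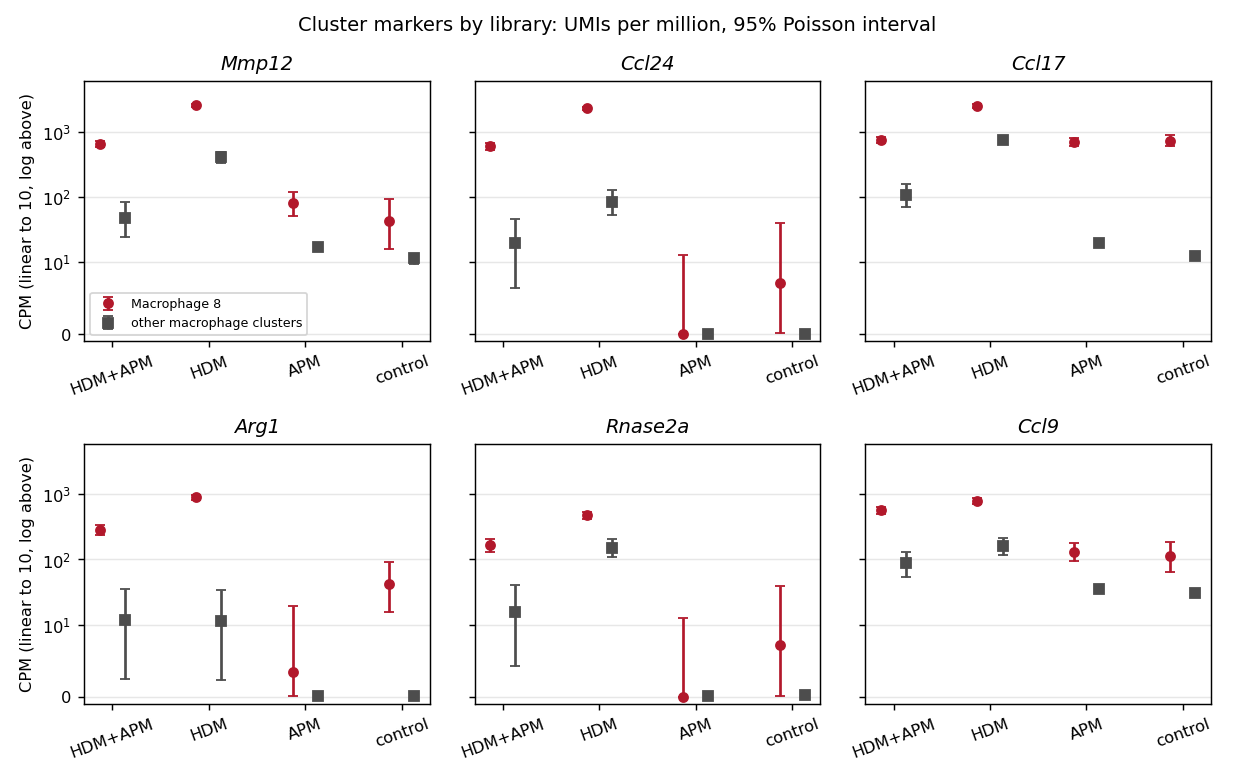
CPM (vertical axis, linear to 10 and logarithmic above) of the 6 markers in Macrophage 8 (red circles) and the other macrophage clusters (grey squares) of each library (horizontal axis), with 95% Poisson intervals. Ccl24, Arg1 and Rnase2a stood high only in the HDM+APM and HDM libraries, while Ccl17 was near 700 CPM in Macrophage 8 of the APM and control libraries.

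Set against the other macrophage clusters of the same library, Macrophage 8 was higher for every marker that could be measured. Because the clusters were made from these same transcripts, this describes the cluster and is no test of it. Mmp12 was 13.7-fold higher (7.71 to 26.7) in HDM+APM, 6.23-fold (5.11 to 7.67) in HDM, 4.66-fold (2.88 to 7.22) in APM and 3.78-fold (1.37 to 8.39) in control. Ccl24 was 30.3-fold (12.8 to 94.0) and 27.3-fold (17.9 to 43.7) higher in HDM+APM and HDM. Arg1 was 23.8-fold (7.98 to 117) and 78.7-fold (26.7 to 383) higher in those libraries. Ccl17 ran the other way, at 7.04-fold in HDM+APM, 3.35-fold in HDM, 36.6-fold in APM and 58.9-fold in control, with 106.5, 743, 19.3 and 12.3 CPM in the other clusters.

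Beyond the markers, summed levels of antigen presentation genes were higher in Macrophage 8 than in the other clusters in all 4 libraries. Among 1767 genes measured in every library, H2-Eb1, H2-Aa and H2-Ab1, which encode chains of MHC class II, took the first 3 places when genes were ordered by the smallest of their 4 log2 ratios over the other clusters. H2-Eb1 had 2006 CPM in Macrophage 8 against 182 in the other clusters in HDM+APM, and 1772 against 240 in HDM. The saline libraries gave 1855 against 94.7 CPM in APM and 1531 against 126 CPM in control. Cd74, the invariant chain that escorts class II molecules, had 6664, 5121, 8370 and 6265 CPM in Macrophage 8 against 848, 1478, 682 and 826 CPM in the other clusters. The summed levels in Macrophage 8 were alike in all 4 libraries, unlike those of Ccl24 or Arg1. In control, however, few cells carried them. H2-Eb1 UMIs lay in 19 of 107 control cells, and the 5 highest cells held 74.9% of H2-Eb1 and 72.5% of Cd74 UMIs.

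The remaining shared genes came from several lists. C1qa and Apoe belong to the list for monocyte-derived macrophages. C1qa, a chain of the complement starter C1q, had 227, 303, 445 and 413 CPM in Macrophage 8 of HDM+APM, HDM, APM and control. The other clusters of those libraries had 39.5, 0, 1.87 and 1.00 CPM. Apoe, which carries lipid out of cells, had 565, 429, 2352 and 854 CPM in Macrophage 8 against 110.5, 22.9, 35.5 and 21.9 CPM in the other clusters. Ccr2, of the monocyte list, the receptor through which monocytes follow Ccl2, had 166, 126, 59.1 and 64.1 CPM in Macrophage 8 against 0, 19.1, 4.49 and 3.55 CPM. Few cells stood behind its saline values, with 17 UMIs in 7 of 205 APM cells and 9 UMIs in 6 of 107 control cells. The same held for C1qa, with UMIs in 15 APM and 9 control cells, and for Apoe, with UMIs in 23 and 9. S100a6, a calcium-binding protein of the monocyte list, AA467197, and Ccl17, also of the migratory dendritic list, completed the first 10 places, with smallest log2 ratios between 1.73 and 2.11. AA467197 had 1836 CPM in Macrophage 8 of HDM against 2213 CPM in its dendritic cells. Ly6c2, a surface marker of blood monocytes, was low in Macrophage 8 in every library, at 18.2, 71.9, 0 and 0 CPM.

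Genes lower in Macrophage 8 in every library differed by less. The ferritin heavy chain Fth1, which stores iron, had 11825, 9820, 22180 and 23621 CPM in Macrophage 8 against 27876, 25399, 32363 and 43962 CPM in the other clusters, with log2 ratios of -1.24, -1.37, -0.54 and -0.90. Il18, which encodes an inflammasome-processed cytokine, had log2 ratios of -1.44, -1.79, -1.17 and -0.64. Cyb5a, a cytochrome of the endoplasmic reticulum, had log2 ratios of -1.11, -0.82, -0.67 and -0.73. None of the genes ordered lowest in every library reached a 2-fold difference in all of them.

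Gene lists placed these differences in pathways. A gene was counted when it was at least 2-fold apart on the log2(CPM + 10) scale, among genes with at least 20 UMIs over both classes. Across all such genes, 4.11% were higher and 4.52% lower in Macrophage 8 than in the other clusters in HDM+APM, 4.6% and 3.21% in HDM, 1.67% and 1.49% in APM, and 4.52% and 4.2% in control. Of the class II list, 7 of 7 measured genes were higher in HDM+APM, 6 of 7 in HDM, 9 of 10 in APM and 7 of 10 in control, with median log2 ratios of 2.96, 1.79, 1.94 and 2.03. Of the list for monocyte-derived macrophages, 10 of 18, 10 of 17, 12 of 21 and 10 of 20 were higher in the same order, with medians of 1.17, 1.15, 1.05 and 0.96. The medians over all genes lay between -0.04 and -0.01. In summed UMIs, the medians of these 2 lists were thus positive in all 4 libraries. Few cells stood behind some of the saline sums. In control, H2-Eb1 UMIs lay in 19 of 107 cells and C1qa UMIs in 9, and in APM C1qa UMIs lay in 15 of 205 cells.

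Other lists had more members higher in the allergen libraries than in the saline libraries, where their counts still exceeded the shares over all genes. The measured members of a list were not the same in each library. Macrophage 8 gave most UMIs of both classes in the HDM libraries, and the other clusters gave most in the saline libraries. A gene high in Macrophage 8 could thus pass the UMI minimum more easily in the HDM libraries, and counts and medians are over unlike members. Of the chemokine list, 7 of 12 measured genes were higher in HDM+APM and 10 of 16 in HDM, against 5 of 15 in APM and 5 of 17 in control, with medians of 1.84, 1.98, 0.01 and 0.07. Of the alternative activation list, which holds genes induced by interleukin-4, 11 of 20 were higher in HDM+APM and 7 of 19 in HDM, against 2 of 13 in APM and 2 of 14 in control, with medians of 1.48, 0.71, -0.23 and 0.22. Of the matrix remodelling list, 5 of 10, 10 of 14, 2 of 10 and 1 of 12 were higher, with medians of 0.98, 1.70, 0.04 and 0.20. Of the interferon-stimulated list, 7 of 15 and 9 of 15 were higher in HDM+APM and HDM, against 2 of 18 and 3 of 20 in APM and control, with medians of 0.95, 1.06, 0.12 and -0.16. The cluster markers are members of the first 3 of these lists.

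Single genes filled these lists in the HDM libraries. Spp1, which encodes osteopontin, had 1068 CPM in Macrophage 8 against 248.5 in the other clusters in HDM+APM, and 1043 against 251 CPM in HDM. Fn1, fibronectin, had 1272 against 529 CPM in HDM+APM and 1045 against 343 CPM in HDM. Ccl8, a chemokine linked to allergic inflammation, had 186 against 7.89 CPM in HDM+APM and 298 against 0 in HDM, at least 26.1-fold higher when the other clusters are set at 3 UMIs. Its UMIs came from few cells, 12 cells in HDM+APM and 15 in HDM. Ifitm3, an antiviral membrane protein, was 6.07-fold (3.92 to 9.86) and 9.95-fold (5.28 to 21.1) higher in HDM+APM and HDM. Isg15, a ubiquitin-like protein induced by interferon, was 3.39-fold (1.96 to 6.28) and 3.14-fold (1.69 to 6.39) higher.

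**Figure D2:**
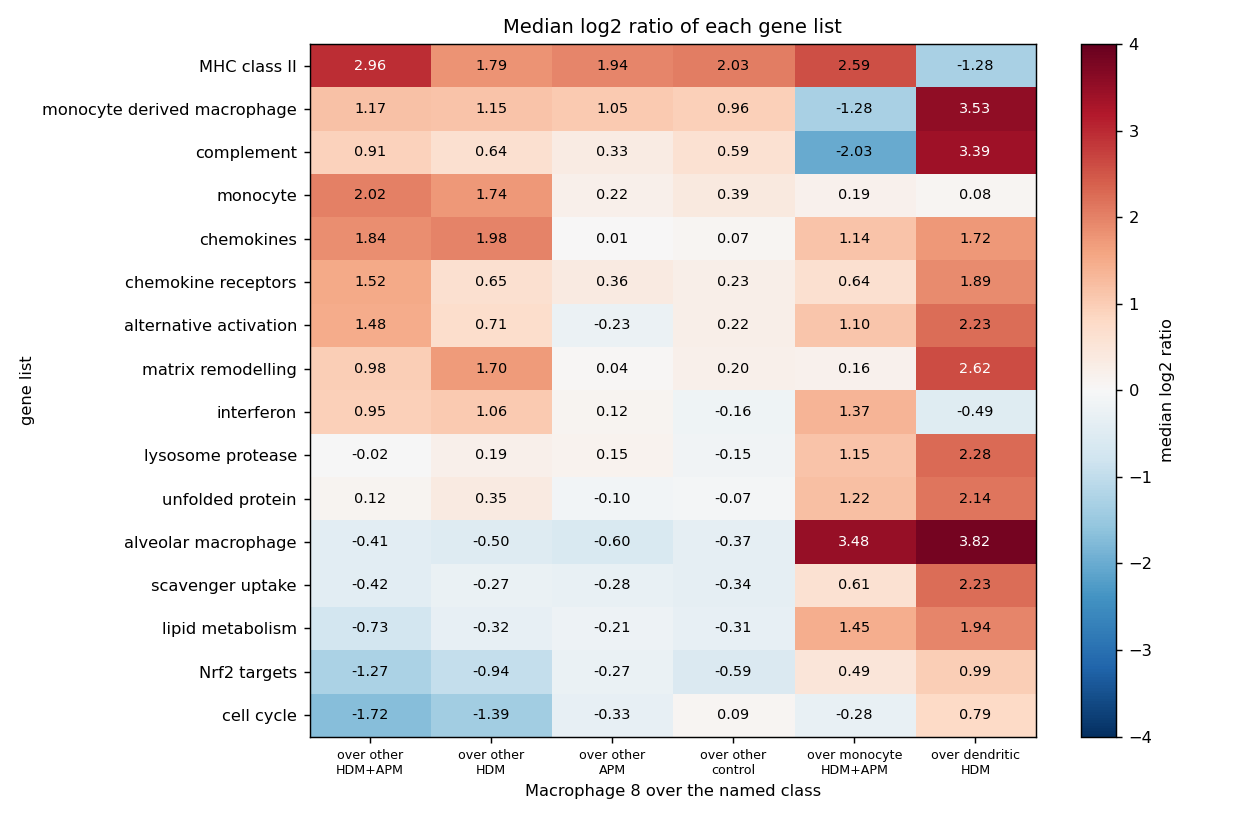
Median log2 ratio of Macrophage 8 over the named class (columns, with the library) for 16 gene lists (vertical axis), printed in each cell and shown by colour from -4 to 4. The class II and monocyte-derived macrophage lists were positive over the other clusters in all 4 libraries, and the chemokine list in HDM+APM and HDM but near 0 in APM and control. Each median is over the genes measured in that comparison, which differ between columns.

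Genes of the alveolar macrophage list were at similar or lower levels in Macrophage 8 than in the other clusters. The alveolar macrophage list has 23 genes, and no measured gene of it was at least 2-fold higher than in the other clusters. Of the measured genes, 5, 4, 6 and 1 were lower in HDM+APM, HDM, APM and control, with medians of -0.41, -0.50, -0.60 and -0.37. Marco, a scavenger receptor for particles, had 64.8 CPM in Macrophage 8 against 331 CPM in the other clusters in HDM+APM, and 67.5 against 126 CPM in HDM. Ear1, a ribonuclease typical of alveolar macrophages, had 70.9 against 406 CPM in HDM+APM and 120 against 427 CPM in HDM. The summed level of the list was 40553, 44135, 13039 and 14274 CPM in Macrophage 8 and 42200, 45442, 20112 and 18726 CPM in the other clusters. Most of the sum in the HDM libraries was Chil3, a chitinase-like protein also in the alternative activation list, at 31711, 33276, 4645 and 5069 CPM in Macrophage 8 and 31403, 31078, 7026 and 6715 CPM in the other clusters.

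Antioxidant genes were lower in the HDM libraries. Of the targets of Nrf2, the factor that answers oxidative stress, 13 of 20 were lower in Macrophage 8 in HDM+APM and 9 of 20 in HDM, but 0 of 22 in APM and 1 of 22 in control, with medians of -1.27, -0.94, -0.27 and -0.59. Gstm1, a glutathione transferase, had 113.5 against 765 CPM in HDM+APM and 58.8 against 514 CPM in HDM. Prdx1, a peroxidase, had 1208 against 3933 CPM in HDM+APM. Mt1, the zinc-binding metallothionein, had 2117 against 5803 CPM in HDM+APM, 1156 against 4594 in HDM, 7901 against 9831 in APM and 8735 against 14091 in control. Cell cycle genes were also lower in the HDM libraries, with 12 of 17 in HDM+APM and 8 of 14 in HDM, but this rested on the dividing clusters 7 and 10: without them the medians were 0.23 and 0.44, against -1.72 and -1.39 with them.

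The cells named classical monocyte were found only in the HDM+APM library, where they numbered 308. There, Macrophage 8 was higher in alveolar macrophage genes and lower in genes of body-cavity macrophages. Of all genes measured, 10.4% were higher and 7.2% lower in Macrophage 8, and of the alveolar macrophage list 19 of 20 were higher, with a median log2 ratio of 3.48 against 0.15 over all genes. Ear2, a ribonuclease of the same family as Rnase2a, had 1603 CPM in Macrophage 8 against 35.4 in the monocytes. Ctsk, a lysosomal collagen-cutting protease, had 517 against 10.98 CPM, and Itgax, the integrin CD11c, had 480 against 9.76 CPM. Macrophage 8 thus carried resident-type genes that these monocyte-named cells had at a low level.

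Some genes of the cells named monocyte went against that name. Ccr2 had 166 CPM in Macrophage 8 against 5.49 in the monocytes, a 30.3-fold difference (15.2 to 68.6) in favour of Macrophage 8. All 14 measured genes of a list for macrophages of the body cavities were lower in Macrophage 8, with a median log2 ratio of -3.53, among them Prg4, a lubricant proteoglycan, at 58.8 against 1762 CPM, and Cd5l, a scavenger protein, at 66.9 against 1190 CPM. C1qc, another chain of C1q, had 251 against 2024 CPM, and 10 of 14 complement genes were lower in Macrophage 8. Alox15, a lipoxygenase, had 64.8 against 1620 CPM. These genes, and not the name, describe the class that Macrophage 8 is set against.

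Among the cluster markers, Macrophage 8 and the monocytes shared some and not others. Arg1 had 282 CPM in Macrophage 8 against 289 in the monocytes, a ratio of 1.03-fold lower with an interval that included 1 (0.848 to 1.25). Ccl9 had 565 against 509 CPM, 1.11-fold higher (0.966 to 1.27). Ccl17 had 750 against 11.6 CPM, Mmp12 646 against 12.2 CPM and Rnase2a 166 against 20.7 CPM, while Ccl24 stood between, at 598 against 262 CPM. Class II genes were higher in Macrophage 8 for 7 of 9 measured, with Cd74 at 6664 against 435 CPM, and interferon-stimulated genes for 12 of 18, with Isg15 at 201 against 12.8 CPM.

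Against dendritic cells the class II order turned round. In the HDM library, with 38 dendritic cells, 30.3% of all genes measured were higher and 10.8% lower in Macrophage 8, with a median log2 ratio of 0.40 over all genes. Over the sum of the libraries, with 76 dendritic cells, the shares were 24.2% and 7.73%. H2-Eb1 had 1772 CPM in Macrophage 8 against 5396 in dendritic cells of HDM, and Cd74 had 5121 against 15275 CPM, so 6 of 9 class II genes were lower in Macrophage 8. All 11 measured genes of the migratory dendritic list were lower. Ccr7, the receptor that guides dendritic cells to lymph nodes, had 26.1 against 2044 CPM, and Fscn1, the actin bundler of mature dendritic cells, had 8.71 against 785 CPM.

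Ccl17, listed as a marker of Macrophage 8, was higher in dendritic cells in every library. Its level was 750 CPM in Macrophage 8 against 8038 CPM in dendritic cells in HDM+APM, and 2489 against 6598 CPM in HDM. In APM it was 705 against 5906 CPM and in control 726 against 11438 CPM, where the dendritic cells numbered 23 and 5. Ccl22, which shares a receptor with Ccl17, had 41.4 CPM in Macrophage 8 against 2235 CPM in dendritic cells in HDM. In HDM the other markers were higher in Macrophage 8, with Arg1 at 899 against 14.1 CPM, Rnase2a at 475 against 7.07 CPM and Mmp12 at 2541 against 198 CPM. Ccl9 had 790 against 127 CPM in HDM, but 565 against 622 CPM in HDM+APM and 114 against 152 CPM in control, where 3 UMIs stood behind the dendritic value.

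Macrophage genes set Macrophage 8 apart from dendritic cells by wide margins. Chil3 had 33276 against 453 CPM in HDM. Lyz2, lysozyme, had 5062 against 84.9 CPM, and Mrc1, the mannose receptor, had 590 CPM against 0, at least 27.8-fold higher when the dendritic sum is set at 3 UMIs. All 18 measured alveolar macrophage genes and 15 of 16 monocyte-derived macrophage genes were higher in Macrophage 8. Interferon-stimulated genes were 4 of 15 lower and 0 higher, with Isg15 at 144 against 806 CPM. Zbtb46, a transcription factor of classical dendritic cells, stood at 0, 8.71, 10.4 and 14.2 CPM in Macrophage 8 of HDM+APM, HDM, APM and control, the last 2 at or under the level of 3 UMIs.

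Whether the same cells carried the name in each library was examined cell by cell. Each cell was thinned to 500 UMIs and set against the profiles of 8 classes built from the other 3 libraries. Cells of HDM+APM were set against 7, because the monocyte-named cells occur in that library alone, so none of its Macrophage 8 cells could be placed with them. The class of highest likelihood was Macrophage 8 for 66.1% (56.4 to 74.9) of its cells in HDM+APM and 74.8% (66.8 to 81.8) in HDM, against 17.1% (12.2 to 22.9) in APM and 14.0% (8.06 to 22.1) in control. The other macrophage clusters were nearest for 21.1%, 12.2%, 69.8% and 74.8%, and dendritic cells for 10.1%, 8.63%, 6.34% and 4.67%. Of the cells in the other macrophage clusters, 10.9%, 20%, 6.79% and 0.133% were nearest Macrophage 8. At 1000 UMIs, which left out the shallower cells, the shares nearest Macrophage 8 were 70.6%, 78.5%, 16.7% and 19.7%. Cells of the saline libraries were judged by a Macrophage 8 profile to which HDM libraries gave 2 of 3 parts, and the part that this composition played was not tested.

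**Figure D3:**
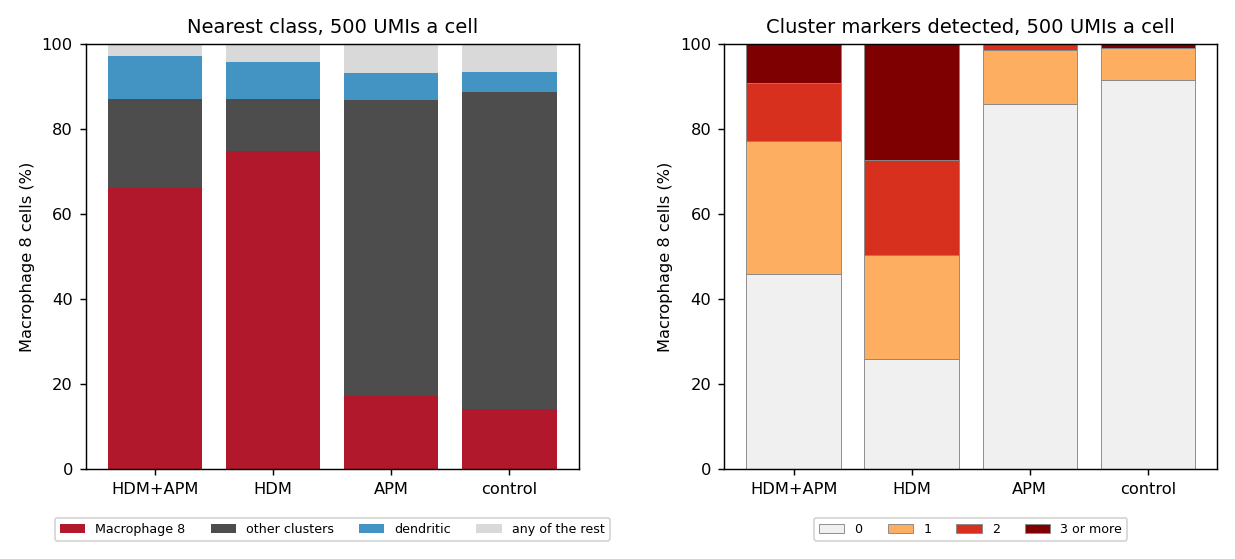
Share of Macrophage 8 cells (vertical axes, percent) in each library by their nearest class (left) and by the number of cluster markers with a UMI (right), every cell thinned to 500 UMIs. Cells nearest their own class made up 66.1% and 74.8% in HDM+APM and HDM, and 17.1% and 14.0% in APM and control.

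The markers themselves were also counted per cell. They came with the cluster and are part of the class profiles, so these shares are a description and no second test. At 500 UMIs, 54.1% of Macrophage 8 cells in HDM+APM and 74.1% in HDM had a UMI of any marker, against 14.1% in APM and 8.41% in control. The unthinned shares were 86.2%, 90.7%, 20.5% and 14.95%, and those with at least 2 markers were 57.8%, 74.8%, 3.41% and 2.80%. T cells, which should lack these genes, had a marker UMI in 4.41%, 8.92% and 1.92% of cells at 500 UMIs in HDM+APM, HDM and APM, and the other macrophage clusters in 13.04%, 21.7%, 2.86% and 2.33%. The median T cell held 1850.5, 1327 and 1129.5 UMIs in these libraries before thinning.

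Class II detection separated Macrophage 8 from its neighbours less in the saline libraries than the summed levels did. Class II transcripts were found in 83.5% and 83.5% of Macrophage 8 cells in HDM+APM and HDM at 500 UMIs, against 46.3% in APM and 44.9% in control. The unthinned shares were 97.2%, 97.8%, 61.5% and 59.8%. Cells of the other macrophage clusters had such a UMI in 47.8%, 61.7%, 30.8% and 41.9%, and T cells in 36.8%, 24.5%, 15.4% and 23.1%. In control the interval of Macrophage 8 (35.2% to 54.8%) covered that of the other clusters (40.3% to 43.5%), so no difference in the share of cells was detectable there. C1q transcripts were found in 22.0%, 21.6%, 7.32% and 8.41% of Macrophage 8 cells in the same order, against 8.70%, 0%, 0.229% and 0.238% of the other clusters. The cells named monocyte had them in 89.3%, and T cells of HDM+APM, HDM and APM in 11.03%, 0% and 0%.

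The transcripts that Macrophage 8 shared between libraries were unevenly spread over its cells. In control, the 5 cells with the most Ccl17 held 97.1% of its UMIs, only 8 of 107 cells had any, and the top cell alone held 52 of 102 UMIs. The 5 highest cells held 51.1% of Ccl17 UMIs in HDM+APM, 44.4% in HDM and 76.3% in APM. For H2-Eb1 the 5 highest cells held 26.4%, 25.2%, 37.5% and 74.9% of UMIs in HDM+APM, HDM, APM and control, with UMIs in 80, 107, 55 and 19 cells. C1qa UMIs in control came from 9 cells and Apoe UMIs from 9 cells. The summed levels of Ccl17 in the saline libraries, and of class II in control, were thus carried by a small number of cells, whose identity was not tested. In APM, Cd74 was found in 89 of 205 cells.

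**Figure D4:**
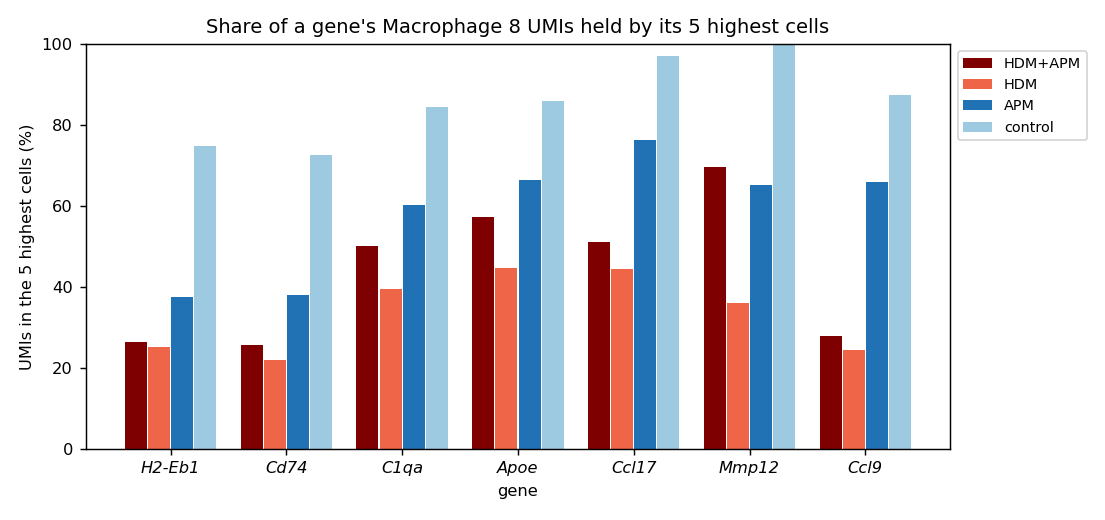
Percent of a gene's Macrophage 8 UMIs held by its 5 highest cells (vertical axis) for 7 genes (horizontal axis), with a bar for each library. The control library was highest for every gene drawn, from 72.5% for Cd74 to 100% for Mmp12, where only 4 cells had a UMI.

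Over all genes, the profile of Macrophage 8 was most alike between the HDM libraries. The within-library log2 ratios over the other clusters had a Pearson r of 0.55 (Spearman rho 0.39) across 3985 genes between HDM+APM and HDM. The r was 0.39 (rho 0.22) between HDM+APM and APM, 0.38 (0.22) between HDM and APM, 0.27 (0.17) between HDM+APM and control, 0.25 (0.13) between HDM and control, and 0.25 (0.15) between APM and control. Genes are not independent replicates, noise of low counts differs between the libraries, and no p is given. Of the genes at least 2-fold higher in HDM+APM or HDM, 78 were higher in both, 52.4% of the HDM+APM genes and 46.2% of the HDM genes. Between HDM+APM and APM, 53 were shared, 33.1% of the HDM+APM genes and 64.6% of the APM genes.

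**Figure D5:**
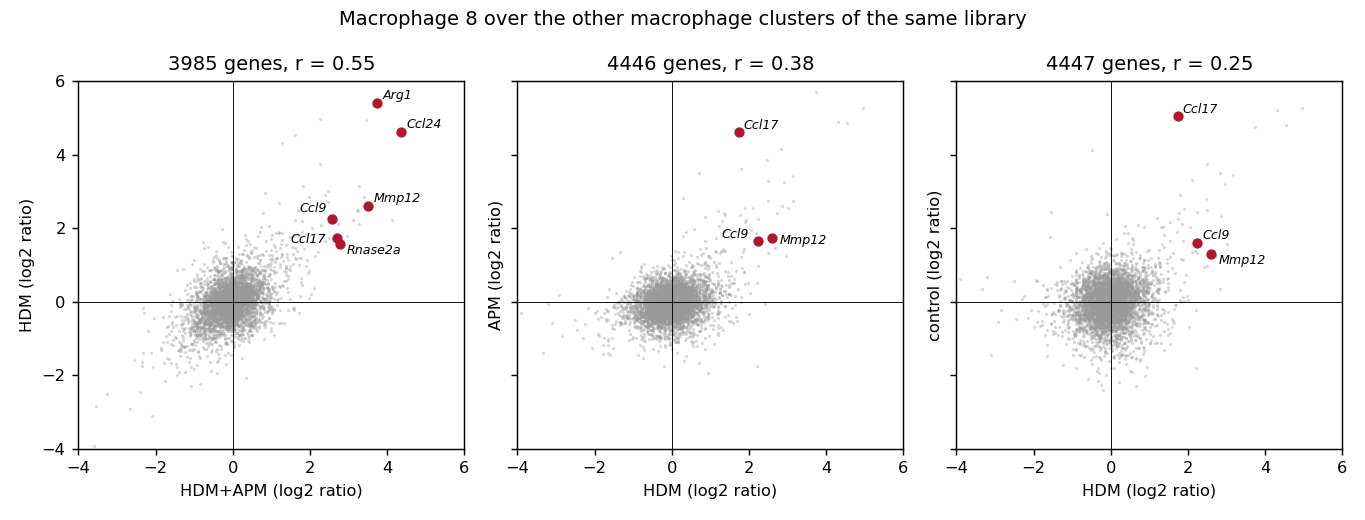
Log2 ratio of Macrophage 8 over the other macrophage clusters for each gene (grey points) in the library of the horizontal axis against that of the vertical axis, with the measured cluster markers in red. The points of HDM+APM and HDM lie closest to a common slope (r = 0.55), and those of HDM and control least (r = 0.25).

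With dust added to allergen, Macrophage 8 had lower summed levels of its own markers. Between HDM+APM and HDM, 1.55% of all genes were higher and 2.48% lower, whereas 5 of the 6 markers were at least 2-fold lower. Mmp12 was lower by 3.93-fold (3.47 to 4.46), Ccl24 by 3.83-fold (3.36 to 4.37), Ccl17 by 3.32-fold (2.95 to 3.74), Arg1 by 3.19-fold (2.63 to 3.90) and Rnase2a by 2.86-fold (2.21 to 3.73), while Ccl9 was lower by 1.40-fold (1.19 to 1.64). These intervals do not cover the uneven spread of UMIs over cells. In HDM, 1 cell held 326 of 1050 Ccl24 UMIs. The 5 highest cells held 69.6% of Mmp12 UMIs in HDM+APM and 36.1% in HDM. With every cell weighted equally, Mmp12 averaged 888 and 2481 CPM, and Ccl24 560 and 2412 CPM, in HDM+APM and HDM. Weighted in this way, Ccl9 no longer differed in that direction, at 861 CPM in HDM+APM and 848 CPM in HDM. Of the chemokine list, 9 of 17 measured genes were lower and 1 was higher, and the median log2 ratio was -1.23 against -0.07 over all genes. This list includes cluster markers, so its count is not independent of theirs. Cxcl3, an attractant of neutrophils, had 12.2 CPM in HDM+APM against 124 CPM in HDM. Class II genes were 2-fold apart for 0 of 7 in either direction. The 6 markers summed to 3007 CPM in HDM+APM and 9480 CPM in HDM, and to 3857 and 9161 CPM when every cell was weighted equally. In the other macrophage clusters, Mmp12, Ccl24 and Ccl17 were also lower in HDM+APM than in HDM. Those clusters held 46 cells in HDM+APM and 60 in HDM, of which 10.9% and 20% were nearest Macrophage 8. T cells, which should lack Ccl17, had 10.25 CPM of it in HDM+APM and 84.5 CPM in HDM. Whether the lower level in those clusters came from their own cells, from cells like Macrophage 8 or from free RNA was not tested. Arg1 was not lower in those clusters, with few UMIs behind it.

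Retnla, a resistin-like protein induced by interleukin-4, had 3653 CPM in Macrophage 8 of HDM+APM against 213 CPM in HDM, 17.1-fold higher (14.0 to 21.2). T cells, which should lack Retnla, had 1100 CPM in HDM+APM against 81.9 CPM in HDM. It was found in 103 of 109 Macrophage 8 cells in HDM+APM. In that library the cells named monocyte had 16611 CPM and the other macrophage clusters 1180 CPM. At 500 UMIs a Retnla UMI was found in 66.1% of Macrophage 8 cells and in 43.4% of T cells. Lyz1, a lysozyme, had 223 CPM against 0, from 12 cells. Saa3, an acute-phase protein, had 140 CPM against 0 and was at least 21.4-fold higher when HDM is set at 3 UMIs. The share of these differences that came from free RNA was not tested.

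Set against dust alone, HDM+APM Macrophage 8 had 5.03% of all genes higher and 4.24% lower. Of the interferon-stimulated list, 15 of 16 measured genes were higher, with a median of 2.13 against -0.01 over all genes. Isg15 had 201 CPM in HDM+APM against 10.4 CPM in APM, and Ifi27l2a, another interferon-induced gene, had 879 against 90.3 CPM. Of the Nrf2 targets, 11 of 20 were lower and 0 higher. Hmox1, which degrades haem, had 249 against 1536 CPM, and Prdx1 had 1208 against 4044 CPM. Ccl17 differed by 1.06-fold (0.893 to 1.27). Of the Macrophage 8 cells, 69.8% in APM but 21.1% in HDM+APM were nearest the other macrophage clusters. The part that this mixture played in these counts was not tested.

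Between HDM and control these lists were apart too, with 10.9% of all genes higher and 5.65% lower. Of the interferon-stimulated list 14 of 15 were higher, of the chemokines 12 of 16, and of the Nrf2 targets 13 of 19 were lower. Gstm1 had 58.8 CPM in HDM against 833 CPM in control. Hspa1a, an inducible heat shock protein, had 19.6 against 1303 CPM, but 1 control cell held 141 of its 183 UMIs. Malat1, a nuclear RNA, had 9193 against 39696 CPM, and the depth of the cells differed between these libraries as given above. The cells under the name differed too. Of control cells 74.8% were nearest the other macrophage clusters, against 12.2% of HDM cells. The part that this mixture played in the list counts was not tested.

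Between APM and control, 3.01% of all genes were higher and 2.43% lower in Macrophage 8. Only 3 of the 6 markers could be measured, and none was 2-fold apart: Ccl17 had 705 CPM in APM against 726 in control, Ccl9 132 against 114 CPM, and Mmp12 79.9 against 42.7 CPM (1.87-fold, 0.741 to 5.62). Of the class II list 0 of 7 were apart in either direction, and of the Nrf2 list 0 of 20 were higher and 1 lower. Apoe was 2.75-fold higher (2.26 to 3.37), at 2352 against 854 CPM. Its UMIs came from 23 of 205 APM cells and 9 of 107 control cells, and the 5 highest cells held 66.3% and 85.8% of them. The haemoglobin genes led the higher genes, and the summed red-cell list had 21551 CPM in Macrophage 8 of APM and 377 CPM in control, with 5150 and 254 CPM in the other macrophage clusters. Airway and surfactant genes stood among the 10 highest, and 6 of 7 measured genes of the airway epithelium list were higher. Scgb1a1, a secretory protein of club cells, had 1539 CPM in APM against 349 CPM in control, and Sftpc, a surfactant protein, had 247 against 49.8 CPM. The summed airway list had 3419 and 883 CPM in Macrophage 8 of APM and control, with 2392 and 412 CPM in the other clusters, and its part in these results was not tested. Gm26917 led the lower genes, at 191 against 3467 CPM.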

How the data were processed

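Single-cell libraries of lavage cells, 1 per group, were analysed as UMI counts per gene and cell, deposited by the authors in a matrix of 13838 genes and 9925 cells together with their cell names. Cell Ranger 2.2.0, Seurat 2.3.4 and build mm10 are named in the submitters' processing notes, without roles. Cells held 496 to 9998 UMIs and under 10% mitochondrial counts in the deposited matrix, no further cell filter was applied here, and doublets were not called. Groups followed the treatment labels. Immunoglobulin constant genes were not analysed here.

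UMIs were summed by class and library and scaled to CPM. Log2 ratios used a pseudocount of 10 CPM and genes with at least 20 UMIs over both classes, and at least 2-fold apart meant a log2 ratio past 1 or -1. Intervals at the 95% level were exact Poisson for levels, conditional binomial for ratios and Clopper-Pearson for shares, and covered counting error only, because molecules of pooled mice in 1 library are not replicates. No p-value was computed. Nearest classes were the highest multinomial likelihood under profiles from the other 3 libraries, weighted equally. Named genes were the 10 highest and 10 lowest with at least 50 CPM in a class and 50 UMIs, the genes high or low in every library, the 6 markers and up to 4 genes a list. The 34 gene lists, the members and the rule were chosen with earlier results of these data known. Steps were checked on simulated counts. Alternatives were other pseudocounts and UMI minimums, thinning, equal weight per cell, free RNA subtraction, other totals, leaving out clusters 7 and 10, and, added after seeing the data, cells with at least 1000 UMIs. Python 3.11.15, numpy 2.4.6, scipy 1.17.1, pandas 2.3.3 and matplotlib 3.10.9 were used.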

Additional observations from a re-analysis of the deposited data

Results flagged for a closer look

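In 7 flagged genes of Macrophage 8, dust over no dust was at least 2-fold one way without allergen and at least 2-fold the other way with it. Smaller changes of direction, such as that of Mmp12, were not flagged. Over all genes, 1.55% were at least 2-fold higher and 2.48% lower for HDM+APM over HDM. For APM over control the shares were 3.01% and 2.43%. Each side rests on 1 library against another, and the difference between them was not tested. Hba-a1 had a log2 ratio of -6.65 for HDM+APM over HDM and 5.82 for APM over control. Hba-a2 had -6.01 and 5.71, Hbb-bs -6.41 and 5.51, and Hbb-bt -5.10 and 6.56 for the same pairs. These encode haemoglobin, and the summed red-cell list stood at 50.7, 6205, 21551 and 377 CPM in Macrophage 8 of HDM+APM, HDM, APM and control, and at 63.1, 2053, 5150 and 254 CPM in the other macrophage clusters.

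Ccl5, a T cell attractant made mainly by lymphocytes, had -1.88 for HDM+APM over HDM and 3.63 for APM over control, where 1 APM cell held 52 of its 58 UMIs. Dendritic cells had 6754 CPM of Ccl5 in APM and 1867 CPM in HDM, and T cells 3835 and 4804 CPM. Klf2, a transcription factor of resting lymphocytes and endothelium, had 2.63 for HDM+APM over HDM and -1.35 for APM over control. Wfdc17, a secreted protein of myeloid cells, had -1.003 for HDM+APM over HDM and 1.25 for APM over control. Summed T cell markers were 52.7, 159, 17.4 and 21.4 CPM in Macrophage 8 of HDM+APM, HDM, APM and control. The part of T cell or dendritic cell transcripts in these values was not tested.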

How the results depend on the processing

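With cells of at least 1000 UMIs, added after seeing the data, Macrophage 8 made up 3.65% and 1.72% of alveolar macrophages in APM and control. Its 6 markers summed to 3007, 9480, 921 and 940 CPM in HDM+APM, HDM, APM and control. With equal weight per cell they were 3857, 9161 and 342 CPM in HDM+APM, HDM and control, after thinning to 1000 UMIs 4012, 788 and 409 CPM in HDM+APM, APM and control, and after subtracting 5% free RNA 9814 CPM in HDM. Genes at least 2-fold apart from the other clusters made up 13.3%, 12.6%, 20.2% and 34.8% with a pseudocount of 1 CPM in HDM+APM, HDM, APM and control, 2.44%, 2.37%, 0.527% and 0.56% with 50 CPM, and 14.5%, 12.97%, 11.1% and 21.8% after thinning. With cells of at least 1000 UMIs the APM value was 4.80%. With 50 CPM the share was 6.25% over the monocytes, 22.8% over dendritic cells of HDM and 10.97% over their sum. Between libraries a pseudocount of 1 CPM gave 8.06% for HDM+APM over HDM, 14.7% for HDM+APM over APM and 8.72% for APM over control. A pseudocount of 50 CPM gave 0.852%, 2.70% and 1.01% for these and 5.17% for HDM over control. Equal weight per cell gave 7.55%, 14.3% and 8.18% for HDM+APM over HDM, HDM+APM over APM and APM over control, and thinning gave 8.24% and 15.5% for the first 2 pairs. APM over control was 13.5% with no UMI minimum and 2.99% with at least 50 UMIs. That minimum gave a Pearson r of 0.69 between HDM+APM and HDM, 0.50 between HDM+APM and APM, 0.37 between HDM+APM and control, 0.52 between HDM and APM and 0.40 between HDM and control. Without the leading genes r was 0.27 between HDM+APM and APM, 0.25 between HDM and APM and 0.12 between HDM and control, and thinning gave 0.41 between HDM+APM and control and 0.085 between APM and control. Without the leading genes 25.4% of APM Macrophage 8 cells were nearest Macrophage 8, but so were 22.8% of its other macrophage clusters (6.79% with those genes), and in the other clusters of HDM the share was 38.3% without and 20% with them. The cell cycle median over the other clusters turned to 0.23 in HDM+APM and 0.44 in HDM without clusters 7 and 10. Hspa1a over the other clusters, at 1.18 in APM and 2.43 in control, turned to -0.39 in APM and -0.18 in control after thinning, and to -0.64 and -0.51 with cells of at least 1000 UMIs. The causes of the remaining differences were not tested. No paired analysis was possible because each group has a single pooled library. With 140468 UMIs in control Macrophage 8, genes under 21.4 CPM could not be told from 0 there.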
